A study of Mus musculus with 6 samples.

Results

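The lysosome genes described here are 49 genes of the acidic compartment in which cells break down proteins, lipids, glycans and proteoglycans. They comprise the 4 MiT/TFE transcription factors, the membrane glycoprotein gene Gpnmb, 6 further lysosomal membrane proteins, 29 enzymes and their activators, and 9 subunits or accessory proteins of the proton pump (V-ATPase). All 49 were found among the 19932 genes measured. The list was chosen by its biology with the nasal and rib differences of these arrays already known, and Gpnmb was selected on its difference itself. The nasal and rib values of these 49 genes are therefore a description, and limma calls among them are only counted beside the share of all genes.

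The 6 microarrays came from chondrocytes of wild-type, untreated ICR mice, an outbred strain. One group was nasal septum at embryonic day 17.5 (n = 3) and the other was rib cartilage at postnatal day 1 (n = 3), each labelled as biological replicates. How many animals went into a sample is not given in the sources used here. Site and age differ together, so they cannot be told apart in any value below, and precision is limited by having only 3 arrays of each. In such bulk RNA, fewer cells of a type and less RNA per cell cannot be told apart either.

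Lysosomal enzymes are made in the endoplasmic reticulum, tagged with mannose 6-phosphate and sorted to the lysosome, where the V-ATPase pumps in the protons that they need to work. MITF, TFEB, TFE3 and TFEC are related leucine zipper factors that bind E-box letters in the promoters of lysosomal genes. The kinase complex mTORC1 holds TFEB and TFE3 in the cytoplasm when nutrients are plentiful. In cartilage, lysosomes degrade the chondroitin, keratan and heparan sulfate chains of proteoglycans, and inherited loss of enzymes such as GALNS, IDUA or GUSB leads to skeletal mucopolysaccharidoses.

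Promoter sequences were taken from RefSeq (GRCm38.p6) as windows from 250 bases before to 50 after a transcription start. They are shown because TFE factors bind such letters. Of the 49 genes, 41 matched a promoter in the table, with 49 windows in all. The 8-letter E-box TCACGTGA, the core of the element known from lysosomal genes, was present in 6 of the 41 genes (14.6%), against 240 of 15491 measured genes with a promoter (1.55%). The 6-letter E-box CACGTG, which every TCACGTGA contains, was present in 14 of the 41 (34.1%), against 9.60% of the measured genes. The variant CATGTG, searched on both strands, was found in 7 (17.1%), against 12.5%. As the 8-letter element is known from lysosomal genes, its higher share among the 49 is not independent evidence. A match is a string of letters and says nothing of whether a factor was bound there.

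The stretches of the 6 genes with TCACGTGA follow, each 5′ to 3′ in the direction of the gene, with the motif in capitals. The first base of the motif is counted from the transcription start.
Mcoln1: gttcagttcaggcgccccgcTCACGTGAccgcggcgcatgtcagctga
Ctsa: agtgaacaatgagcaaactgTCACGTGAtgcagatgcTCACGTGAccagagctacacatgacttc
Ctsd: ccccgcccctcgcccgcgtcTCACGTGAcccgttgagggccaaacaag
Atp6v0d1: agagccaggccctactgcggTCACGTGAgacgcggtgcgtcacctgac
Atp6v1a: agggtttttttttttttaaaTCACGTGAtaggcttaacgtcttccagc
Gla: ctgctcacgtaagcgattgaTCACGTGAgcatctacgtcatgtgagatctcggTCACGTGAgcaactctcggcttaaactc
They lie at chr8:3500453-3500500, plus strand (Mcoln1), chr2:164833740-164833804, plus strand (Ctsa), chr7:142387899-142387946, minus strand (Ctsd), chr8:105566041-105566088, minus strand (Atp6v0d1), chr16:44139364-44139411, minus strand (Atp6v1a) and chrX:134601173-134601253, minus strand (Gla). The motif began at -46 in Mcoln1, at -13 and 5 in Ctsa, at -99 in Ctsd, at -4 in Atp6v0d1, at -132 in Atp6v1a and at -228 and -195 in Gla. Ctsa and Gla thus held 2 copies each.

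Lamp1 had no TCACGTGA, but its window held 4 copies of CACGTG, at -61, -45, -28 and -15, more than in any other of the 41 genes. They are in capitals in the stretch at chr8:13159080-13159171, plus strand.
Lamp1: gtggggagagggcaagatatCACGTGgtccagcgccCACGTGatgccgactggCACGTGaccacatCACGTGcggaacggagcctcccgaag

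The Gpnmb window is shown whole, since this gene had the largest difference of the 49. It contained neither TCACGTGA nor CACGTG nor CATGTG. Capitals mark its 2 matches to the general E-box CANNTG, which 71.5% of measured genes with a promoter hold (chr6:49036268-49036567, plus strand).
Gpnmb: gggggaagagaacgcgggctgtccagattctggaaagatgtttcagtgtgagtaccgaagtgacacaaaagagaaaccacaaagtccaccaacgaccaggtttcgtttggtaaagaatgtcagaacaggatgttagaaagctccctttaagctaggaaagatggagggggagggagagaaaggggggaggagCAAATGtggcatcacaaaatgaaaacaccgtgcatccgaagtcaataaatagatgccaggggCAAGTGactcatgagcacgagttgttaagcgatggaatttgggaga

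**Figure D1:**
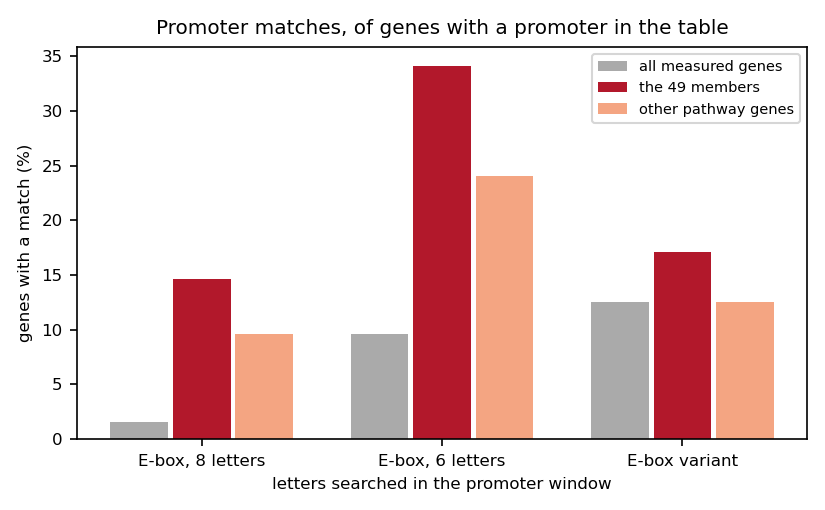
Share of genes with a promoter (vertical axis, %) whose window held TCACGTGA (E-box, 8 letters), CACGTG (E-box, 6 letters) or CATGTG (E-box variant), for all measured genes (grey), the 49 lysosome genes (red) and the other genes of the pathway (pale). The red bars stand at 14.6%, 34.1% and 17.1%, against 1.55%, 9.60% and 12.5% in grey.

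Gpnmb encodes a heavily glycosylated transmembrane protein, also called osteoactivin, that is found in melanosomes and lysosomes and is a known target of MITF. Its intensities, on a linear scale, were 394, 440 and 403 in the 3 nasal samples and 3807, 4019 and 3708 in the 3 rib samples. Every rib sample was far above every nasal sample, and within a group the samples lay close together. The log2 difference was -3.22 (SE 0.09), or 9.33-fold higher in rib. By this difference it ranked 5 of 19932 genes towards rib.

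The factors that could act on such genes differed much less. Mitf, the melanocyte and osteoclast member of the family, stood at 126, 101 and 86.8 in nasal and 158, 171 and 168 in rib (-0.68, SE 0.14). The groups did not overlap, but every value was below 231, the median intensity of a gene. Background was not measured here, so how far such signal stood above it is not known. Its 3 probe sets differed by -0.51 to -0.68, all with the same sign. Tfeb, a main activator of lysosomal genes, had 720, 639 and 612 in nasal and 492, 588 and 646 in rib (0.20, SE 0.13). Tfe3, its close relative, had 1686, 1548 and 1929 in nasal and 1780, 1900 and 1910 in rib (-0.12, SE 0.11). The groups overlapped for both genes. Tfec, which is best known from macrophages, was at 110, 63.1 and 73.8 in nasal and 73.8, 64.0 and 76.5 in rib, low in every sample and highest in nasal replicate 1. The sign of its difference (0.17, SE 0.20) turned under quantile and cyclic loess normalization (both -0.09) and without nasal replicate 1 (-0.06).

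**Figure D2:**
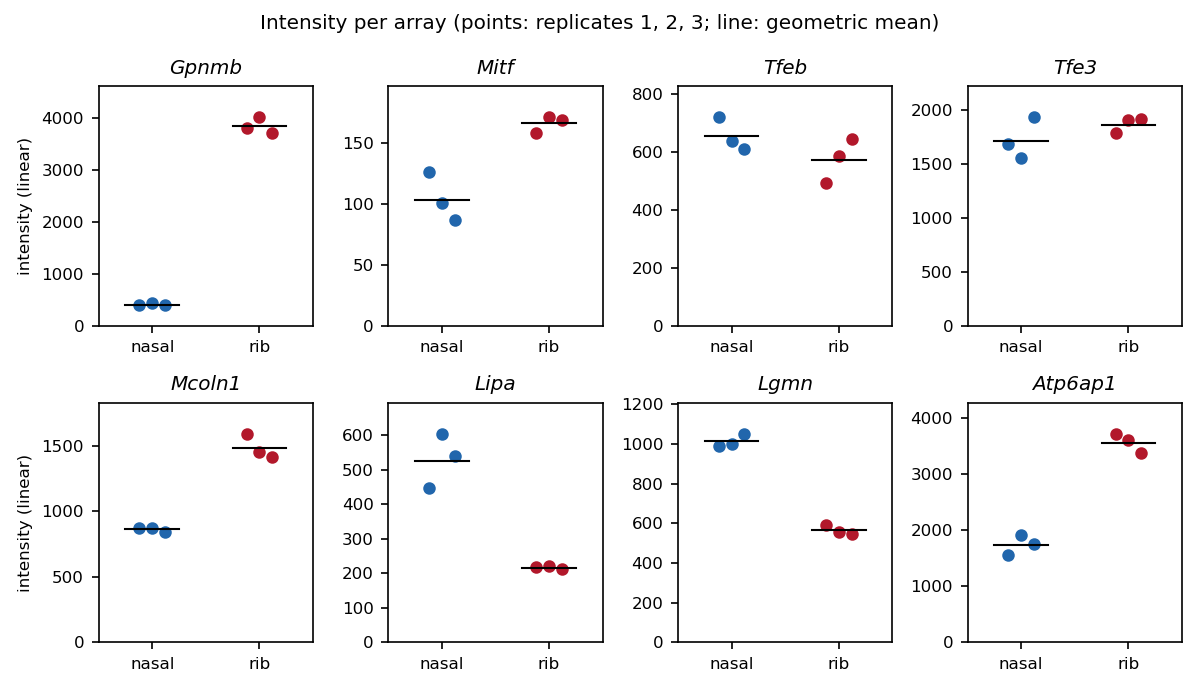
Intensity on a linear scale (vertical axis, from 0) of 8 lysosome genes in each of the 3 nasal (blue) and 3 rib (red) samples, with the geometric mean as a line. Gpnmb stood near 412 in nasal and 3842 in rib, and Lipa at 525 and 217, while the Tfeb and Tfe3 values of the groups overlapped.

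The membrane proteins were divided. Mcoln1 encodes TRPML1, the channel that releases calcium from lysosomes. Its values were 874, 870 and 843 in nasal and 1590, 1450 and 1414 in rib (-0.78, SE 0.09), with no overlap. Cd63, a tetraspanin of late endosomes and lysosomes, went the other way, with 7193, 7826 and 7110 in nasal and 5694, 4702 and 3807 in rib (0.66, SE 0.15). Its rib samples were spread more widely than those of nasal. Lamp2, an abundant lysosomal membrane glycoprotein that takes part in autophagy, had 5179, 6576 and 6222 in nasal and 5493, 4903 and 4425 in rib (0.28, SE 0.13), and the groups overlapped through nasal replicate 1. The related Lamp1 was at 3375 in nasal and 3844 in rib (-0.19, SE 0.08) and did not overlap. Npc1, the cholesterol exporter, had a difference of 0.18 (SE 0.09), also without overlap, and Scarb2, the receptor that carries glucocerebrosidase to lysosomes, of 0.01 (SE 0.10).

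Of the 10 lysosomal proteases, 6 had positive and 4 negative differences. Lgmn, the asparaginyl endopeptidase legumain, had 991, 999 and 1051 in nasal and 594, 554 and 545 in rib (0.85, SE 0.09). Ctsl, the cysteine protease cathepsin L, had 3937, 4281 and 4498 in nasal and 2625, 2734 and 2720 in rib (0.65, SE 0.09). Ctsd, the aspartic protease cathepsin D, was the reverse, with 2822, 2878 and 2803 in nasal and 4287, 4461 and 4111 in rib (-0.60, SE 0.08). None of these 3 overlapped between the groups. Ctsa, which encodes the carboxypeptidase called protective protein, was also higher in rib (-0.48, SE 0.09), as was Ctsk, the collagen-degrading cathepsin K (485 against 650, -0.42, SE 0.13). Cathepsin B (Ctsb) was higher in nasal (0.32, SE 0.09). Ctsf (0.21), Ctsz (0.08), Ctsh (0.02) and the tripeptidyl peptidase gene Tpp1 (-0.02) had smaller differences, and only Ctsf among them did not overlap. Limma calls of Ctsb and Ctsk were lost in 8 of the 14 alternatives.

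Among the 13 glycosidases and sulfatases, 8 had negative and 5 positive differences. Ids, the iduronate sulfatase that starts the breakdown of dermatan and heparan sulfate, had 482, 575 and 554 in nasal and 798, 801 and 824 in rib (-0.59, SE 0.10). Glb1, the beta-galactosidase that trims keratan sulfate and gangliosides, had 556, 498 and 493 in nasal and 732, 754 and 725 in rib (-0.52, SE 0.09). For both the lowest rib sample was above the highest nasal one. Sgsh, a sulfatase of heparan sulfate, had 235, 151 and 175 in nasal and 259, 257 and 284 in rib (-0.54, SE 0.17), with a wide nasal spread. The other enzymes on this side were the alpha-glucosidase gene Gaa (-0.41, SE 0.09), the sialidase gene Neu1 (-0.38, SE 0.09), the beta-glucuronidase gene Gusb (-0.27, SE 0.11), Naglu (-0.22, SE 0.12) and Arsb (-0.19, SE 0.09). On the nasal side were the alpha-galactosidase gene Gla (614 against 443, 0.47, SE 0.10), Hexa, the alpha chain of beta-hexosaminidase (2684 against 2028, 0.40, SE 0.11), and Galns, which removes sulfate from keratan and chondroitin 6-sulfate (0.33, SE 0.11). Idua (0.06) and Man2b1 (0.07), for the enzymes that remove iduronic acid and mannose, were nearly level, and their values overlapped.

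Products that work as one complex can be set side by side, a comparison chosen after the values were seen. Beta-galactosidase, protective protein and sialidase 1 are known to form one multienzyme complex, and all 3 of their genes (Glb1, Ctsa, Neu1) were higher in rib, by log2 differences of -0.38 to -0.52. All 3 were among the rib calls, a share of 14.7% of all genes, and Neu1 lost its call in 6 of 14 alternatives. Of the 13 glycosidases and sulfatases, 5 had positive differences, Galns among them (0.33, SE 0.11). The 3 genes therefore do not stand for the enzymes around them.

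In lipid handling, Lipa had the largest nasal difference of the 49 genes. It encodes acid lipase, which hydrolyses the cholesteryl esters and triglycerides taken up with lipoproteins. Its values were 446, 603 and 539 in nasal and 218, 221 and 211 in rib (1.28, SE 0.13), or 2.42-fold higher in nasal, and nasal replicate 1 was the lowest of its group. Its rib values lay under the median gene intensity of 231. The 2 probe sets of Lipa held identical values and count as 1 measurement. Asah1, acid ceramidase, had 926, 1089 and 977 in nasal and 1506, 1349 and 1248 in rib (-0.45, SE 0.11). Grn, the progranulin precursor, had 1225, 1530 and 1507 in nasal and 1645, 1771 and 1770 in rib (-0.29, SE 0.11). Neither gene overlapped between the groups. Values of the cholesterol carrier Npc2 (-0.14, SE 0.10), the saposin precursor Psap (0.05, SE 0.08) and the ganglioside activator Gm2a (0.14, SE 0.10) overlapped, and Psap had the smallest spread between replicates of the 49 (pooled SD 0.04 on the log2 scale).

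Among the V-ATPase genes, 7 of 9 had negative differences. Atp6ap1, an accessory protein needed to assemble the pump, had 1553, 1918 and 1745 in nasal and 3714, 3605 and 3367 in rib (-1.04, SE 0.11), which is 2.05-fold. Atp6v1d, subunit D of the rotor, had 758, 854 and 856 in nasal and 1449, 1380 and 1242 in rib (-0.72, SE 0.10). Atp6v1b2, a B subunit of the catalytic ring, had 1304, 1512 and 1458 in nasal and 2421, 2312 and 2083 in rib (-0.67, SE 0.10). In all 3 genes nasal replicate 1 was the lowest array and rib replicate 1 the highest, and no values overlapped. Atp6v1c1 (-0.52, SE 0.09), Atp6v0d1 (-0.41, SE 0.09) and Atp6v0a1 (-0.20, SE 0.09) lay on the same side without overlap, while Atp6ap2 (-0.20, SE 0.14) overlapped. The 2 exceptions were Atp6v1a, the catalytic A subunit (1401 against 1252, 0.16, SE 0.10), and Atp6v1h, the regulatory H subunit (969 against 876, 0.15, SE 0.09). The A and B subunits, which alternate in one ring, had differences of opposite sign, and the values of Atp6v1a overlapped.

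**Figure D3:**
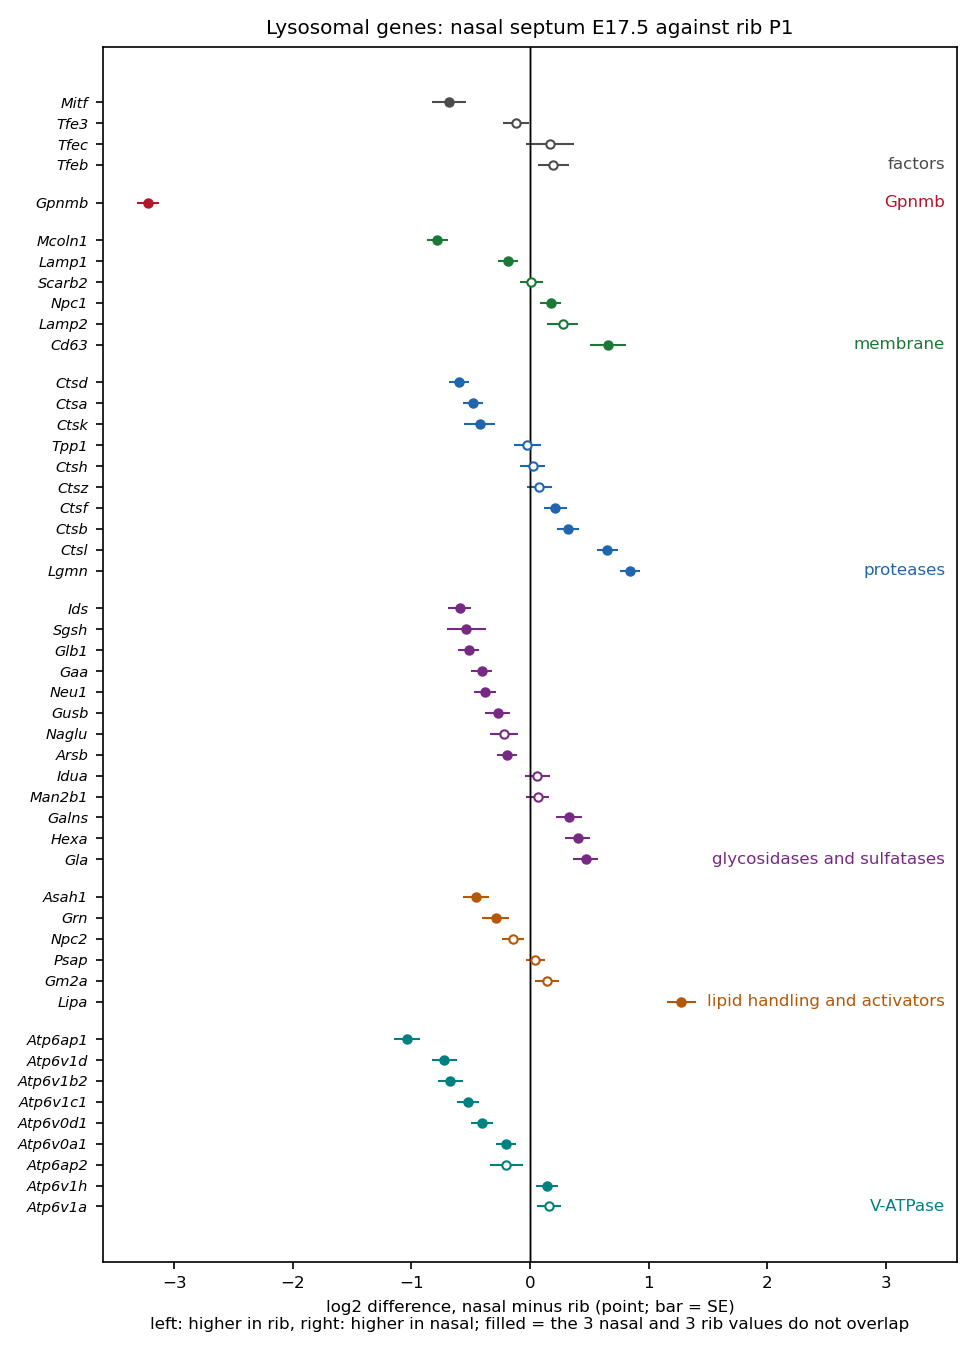
Log2 difference, nasal minus rib (horizontal axis), of each of the 49 lysosome genes with its SE as a bar, grouped by role. Filled points are genes whose 3 nasal and 3 rib values did not overlap. Gpnmb lies alone at -3.22, Lipa at 1.28 and Atp6ap1 at -1.04, and all other genes lie between -0.78 and 0.85.

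Over the 49 genes the differences ran from -3.22 to 1.28 with a median of -0.14, while the median of all genes was 0.11. The 3 nasal and 3 rib values did not overlap for 33 genes, 22 of them higher in rib and 11 in nasal, against 21.7% and 24% of all genes. With limma 16 genes were called higher in rib and 7 in nasal at an adjusted p of 0.05, against 14.7% and 13.8% of all genes. Because the genes were listed with this contrast known, these counts describe the list and nothing is read from them. The nasal count fell to 3 without nasal replicate 2 or without rib replicate 2 and to 4 without rib replicate 3. An absolute log2 difference of 1 was reached by 3 genes: Gpnmb, Lipa and Atp6ap1. Under quantile or cyclic loess normalization the median of all genes moved to 0.00 and that of the 49 genes to -0.09. By role, calls were 5 rib and 0 nasal of 9 V-ATPase genes, 4 rib and 2 nasal of 13 glycosidases and sulfatases, 3 and 3 of 10 proteases, 1 and 1 of 6 lipid genes, 1 and 1 of 6 membrane proteins, and 1 and 0 of 4 factors, beside Gpnmb in rib.

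Array by array the 49 genes were ordered otherwise than all genes, a comparison not matched for level. The median intensity of an array was 209 to 261, and array pairs correlated at 0.987 to 0.993 within groups and 0.957 to 0.968 across them, over probe sets, which are not independent. Genes at or over the median level had a median difference of -0.07 and dimmer genes 0.22, and 46 of the 49 genes were of the brighter kind. Nasal replicate 1 was the lowest nasal sample for 27 of the 49 genes, though it was the highest for 62.8% of all genes. Rib replicate 3 was the lowest rib sample for 31 of the 49, though it was the highest for 51.7% of all genes. Those shifts were small, with median deviations from the group mean of -0.04 and -0.05 for the 49 genes. The median SD between replicates was 0.10 for the 49 genes and 0.16 for all genes. Whether other bright genes show the same order and spread was not tested. For the 10 genes with more than 1 probe set, all probe sets of a gene had the same sign, and the widest gap between 2 of them was 0.17, in Mitf.

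**Figure D4:**
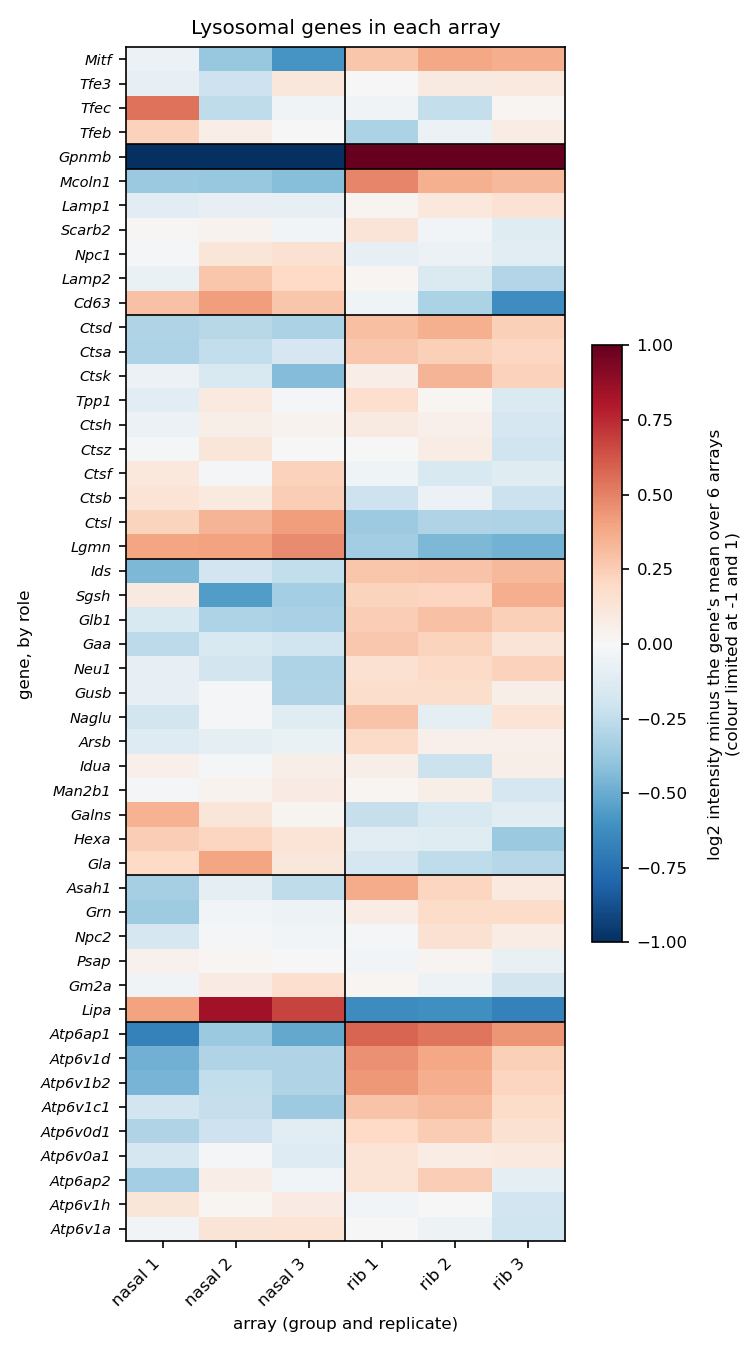
Log2 intensity of each of the 49 lysosome genes (rows, by role) in each array (columns) minus the gene's mean over the 6 arrays, with colour limited at -1 and 1. Gpnmb passes the colour limit in every array, Atp6ap1, Atp6v1d and Atp6v1b2 are below their mean in nasal and above it in rib, and Ctsl, Lgmn and Lipa are the reverse.

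Markers of cells that could carry lysosome genes were examined beside these results. All 7 chondrocyte markers were bright, with summed intensities of 69115 to 71674 in nasal and 67061 to 72343 in rib, and they are the genes that define the labelled cell type. Of them Sox9 was called, higher in rib (-0.28, limma adjusted p = 0.0491). Of 15 measured macrophage markers, 14 were below the median gene intensity in both groups, and their sum was 2533 to 2980 in nasal and 2211 to 2402 in rib. The defining macrophage genes Adgre1 (66.1 against 53.9) and Csf1r (156 against 119) were dim, and limma called 0 of the 15. At an unadjusted limma p of 0.05, 2 of them (Csf1r and Cd163) were higher in nasal and 0 in rib. Nasal replicate 1 was the highest nasal sample for both, as for 62.8% of all genes. Csf1r had 194, 138 and 143 in nasal, and Cd163 113, 78.7 and 76.2. Osteoclast markers summed to 5234 to 5481 in nasal and 4355 to 4776 in rib. Of 11, Mmp9 was called higher in nasal (842 against 206, limma adjusted p = 0.000244) and Atp6v0d2 in rib (112 against 179, limma adjusted p = 0.0185). Melanocyte markers summed to 1318 to 1665 in nasal and 988 to 1187 in rib, with Pmel at 157 and 160, and Sox10 and Oca2 were called higher in nasal. Osteoblast markers overlapped in sum (5480 to 6581 in nasal and 4845 to 7488 in rib), with Ibsp, Alpl and Phex called higher in nasal. The median differences of the macrophage and melanocyte lists were 0.26 and 0.29, where all genes under the median level had 0.22, and Mmp9 made up most of the gap between the osteoclast sums. Whether any such cells contributed to the values of the 49 genes was not tested.

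To set the 49 genes in their pathway, 6 lists of other lysosomal genes were drawn up from knowledge of the pathway, at a time when results of these arrays were already known. Of 133 genes listed, 127 were measured. With limma, 53 (41.7%) stood higher in rib and 20 (15.7%) in nasal, against 14.7% and 13.8% of all genes. Their median difference was -0.17. The nasal count was 11 without rib replicate 2, 12 without nasal replicate 2 and 13 without nasal replicate 3 or rib replicate 3. As most of these genes are bright, the fit without genes under the median level is the closer background. It called 56 of 108 such genes higher in rib (51.9%) and 19 in nasal (17.6%), against 35% and 23.6% of all genes in that fit. The same fit called 20 of 46 of the lysosome genes described above higher in rib and 8 in nasal. These shares describe the lists, and no test of a list was run.

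Other lysosomal membrane proteins and transporters had 16 of 32 genes higher in rib and 4 in nasal, with a median of -0.37. The fit without dim genes gave 17 and 5 of 30, where all genes had 35% and 23.6%. Ctns, the cystine exporter, had 311, 271 and 256 in nasal and 816, 832 and 840 in rib (-1.57, SE 0.10, limma adjusted p = 0.000209). Clcn7, the lysosomal chloride-proton exchanger (-1.25, SE 0.10, limma adjusted p = 0.000358), and Ostm1, its obligate partner subunit (-1.03, SE 0.09, limma adjusted p = 0.00043), were both higher in rib. The amino acid transporter Slc36a1 was also higher in rib (229 against 517, -1.17, SE 0.13, limma adjusted p = 0.000986). The relatives of Mcoln1 went the opposite way to it: Mcoln3 had 279 in nasal and 102 in rib (1.45, SE 0.15, limma adjusted p = 0.000899) and Mcoln2 602 and 361 (0.74, SE 0.13, limma adjusted p = 0.00614). Slc46a3 (0.47) and Sidt2 (0.35) were also higher in nasal, but each lost its call in 6 alternatives.

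Among 32 other hydrolases and cofactors, 13 passed towards rib and 7 towards nasal. Without dim genes the counts were 13 and 5 of 25, beside 35% and 23.6% of all genes in that fit. Glmp, a lysosomal glycoprotein, had 738 in nasal and 1725 in rib (-1.23, SE 0.08, limma adjusted p = 0.000224). Smpdl3b (-0.94), Epdr1 (-0.93) and the thioesterase gene Ppt2 (-0.82) were also higher in rib, with limma adjusted p-values of 0.000921, 0.00543 and 0.00181. Chitobiase (Ctbs), which trims the core of N-glycans, had 211 against 103 (1.03, SE 0.11, limma adjusted p = 0.000804). The fucosidase gene Fuca1 (0.79, limma adjusted p = 0.000934) and the beta-mannosidase gene Manba (0.65, limma adjusted p = 0.00756), further enzymes of glycoprotein breakdown, were higher in nasal. Ctsc, cathepsin C, was called in nasal (0.71, SE 0.21, limma adjusted p = 0.0446) but lost the call in 7 alternatives. Of 14 other V-ATPase subunits, 5 passed towards rib and 0 towards nasal, and without dim genes 5 and 0 of 7. Atp6v0b, a proteolipid of the membrane ring, had 1048 against 1919 (-0.87, SE 0.10, limma adjusted p = 0.001), followed by Atp6v0d2 (-0.67), Atp6v1e1 (-0.59) and Atp6v0a2 (-0.41). At an unadjusted limma p of 0.05, 6 of those 14 were higher in rib and 1, Atp6v1b1, in nasal. Atp6v1b1 had 237, 146 and 149 in nasal and 127, 109 and 127 in rib.

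Genes that control the TFE factors had 10 of 20 members higher in rib and 2 in nasal. Without dim genes the counts were 9 and 1 of 17, beside 35% and 23.6% of all genes in that fit. Rragb, one of the Rag GTPases that bring mTORC1 to the lysosome, had 133, 112 and 97.1 in nasal and 365, 310 and 363 in rib (-1.61, SE 0.14, limma adjusted p = 0.000456). Flcn, folliculin, which activates RagC and RagD and so keeps TFEB under mTORC1 control, had 437 against 841 (-0.94, SE 0.08, limma adjusted p = 0.000454). The mTORC1 subunit gene Mlst8 (-0.86, limma adjusted p = 0.00155) and the Ragulator subunit gene Lamtor4 (-0.72, limma adjusted p = 0.00235) were on the same side. So were the mTORC1 inhibitor genes Tsc1 (-0.58, limma adjusted p = 0.00316) and Tsc2 (-0.43, limma adjusted p = 0.0277), though Tsc2 lost its call in 5 alternatives. A direction of control was not read from this list. Rheb, the GTPase that switches mTORC1 on, had 4161 against 2679 (0.64, SE 0.10, limma adjusted p = 0.00472), and Rragd, a Rag GTPase that is itself a known TFE target, 212 against 144 (0.55, SE 0.09, limma adjusted p = 0.00483).

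Genes of enzyme tagging and sorting had 6 of 10 higher in rib and 2 in nasal. The fit without dim genes gave the same counts, where all genes had 35% and 23.6%. Gnptab and Gnptg encode the phosphotransferase that starts the mannose 6-phosphate tag. Gnptab had 765 against 1402 (-0.87, SE 0.09, limma adjusted p = 0.000735), and Gnptg 550 against 885 (-0.69, SE 0.08, limma adjusted p = 0.00133). The sorting adaptors Gga2 (-0.74) and Gga3 (-0.61) were also higher in rib. M6pr, the smaller of the mannose 6-phosphate receptors, had 1768 against 1045 (0.76, SE 0.15, limma adjusted p = 0.00987). Sort1, another sorting receptor, was called in nasal (0.33, limma adjusted p = 0.0462) and lost the call in 7 alternatives. Autophagy genes had 5 of 19 higher in nasal and 3 in rib, a median of -0.03, and in the fit without dim genes 6 and 6 of 19. The autophagy receptor gene Optn had 869 against 457 (0.93, SE 0.08, limma adjusted p = 0.0005), and Wipi2 (0.67), Gabarapl1 (0.51) and Ulk1 (0.45), which act in autophagosome formation, were on the same side. Atg7 (-0.50), Nbr1 (-0.43) and Rubcn (-0.34) were higher in rib and each lost the call in 5 or 6 alternatives.

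**Figure D5:**
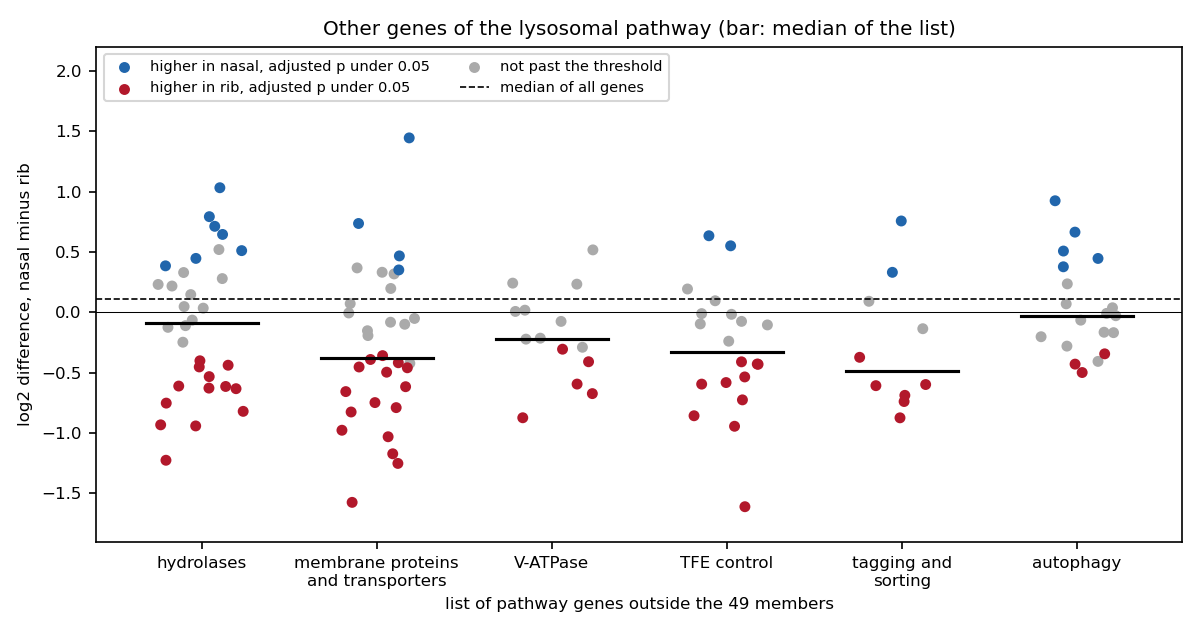
Log2 difference, nasal minus rib (vertical axis), of the 127 pathway genes outside the 49, in 6 lists. Each point is a gene, red or blue where limma called it, the bar is the list's median and the dashed line the median of all genes (0.11). The medians run from -0.48 for tagging and sorting to -0.03 for autophagy.

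The promoter letters can be read beside these differences. Of the 6 lysosome genes with TCACGTGA, Mcoln1, Ctsa, Ctsd and Atp6v0d1 were called higher in rib, Gla in nasal and Atp6v1a in neither, with a median of -0.44. The 35 without it had a median of -0.14. In the other lists, TCACGTGA was in 10 of 104 genes with a promoter (9.62%). Of these 10, 7 were higher in rib (Clcn6, Clcn7, Cln3, Slc36a1, Mfsd1, Atp6v0e and Gnptg), 0 were higher in nasal while 3 did not pass (Cd164, Igf2r and Sumf1). The calls of Atp6v0e, Clcn6, Atp6v0d1 and Gla were lost in 8, 5, 4 and 3 of 14 alternatives. Of all measured genes with TCACGTGA in their promoter, 32.5% were called higher in rib, or 44.8% in the fit without dim genes, against 14.7% and 35% of all genes. Of the pathway lists as a whole, the same fits called 41.7% and 51.9% higher in rib. Nothing is read from so few genes. The windows of the 4 factor genes held neither TCACGTGA nor CACGTG, and Lipa, the highest on the nasal side, held none of the 3 E-boxes searched.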

How the data were processed

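RNA of 6 chondrocyte samples was hybridised to Affymetrix whole-transcript arrays after labelling 300 ng of total RNA, per the labels' protocols. The deposited intensity values are linear and scaled by the authors to 1 trimmed mean (2%) per array, as measured on the values. RMA is named, without a version, per the submitters' processing notes. For further steps and the genome build, no source used here gives any statement. Intensities were taken to log2 and fitted with limma 3.58.1 (R 4.3.3, lmFit and eBayes, nasal minus rib, two-sided), with Benjamini-Hochberg adjustment over 19932 genes at a threshold of 0.05. Of 28451 probe sets, 24935 had 1 symbol and 3516 none, and a gene was read from its probe set of highest mean. Levels of different probe sets were not compared. SEs come from the fit, and group means are geometric. Samples were not treated as paired by replicate number. Deviations of same-numbered samples correlated at -0.02, 0.22 and -0.28, and those of unlike-numbered samples at -0.365 to 0.382. With 3 arrays per group these correlations are tied together, so they cannot exclude that samples shared a batch. An exact permutation test of 3 against 3 cannot go below 0.1 and was not used.

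The genes, lists and promoter letters were chosen with earlier results of these data known. Every value is given for Gpnmb, the 4 factors and the 3 genes of largest difference in each other role. Up to 4 called genes per direction are named in each pathway list, with Tsc1 and Tsc2 added to the TFE control list. Alternatives were quantile, cyclic loess and median scaling, leaving out dim genes, averaging probe sets, trend and robust settings, a replicate block and leaving out each array. The pathway genes Rnaset2a, Rnaset2b, Atp6v0c, Atp6v1f, Lamtor3 and Gabarapl2 and the marker genes Cd68 and Bglap2 were listed but not analysed here. Promoters were searched on both strands in windows of 300 bases, and Npc1, Ctsb, Ctsh, Galns, Asah1, Atp6v1b2, Atp6v1c1 and Atp6v1h had none in the table.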

Additional observations from a re-analysis of the deposited data

How the results depend on the processing

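No alternative turned the direction of a called gene among the 49, or among the called genes of largest difference in each pathway list. The direction of other called genes was not checked. With 3 arrays per group, the counts depended most on single arrays: without each array in turn, all genes gave 1639 to 2596 calls in nasal (2746 with all arrays) and 1827 to 3168 in rib (2937), the 49 lysosome genes 3 to 6 in nasal (7) and 11 to 17 in rib (16), and the other pathway genes 11 to 19 in nasal (20) and 39 to 52 in rib (53). A replicate block was also fitted, although whether the numbers pair the samples is not known. With it, calls were 5 nasal and 11 rib among the 49 and 12 nasal and 40 rib among the other pathway genes. Among all genes they were 1939 and 1964. The cause was not tested. Of the 23 called genes among the 49, 14 were called in every alternative that tested them. Besides those named above, Hexa lost its call in 6 of 14 alternatives, Asah1 in 4, Gaa in 3 and Cd63 in 2. Of the 53 other pathway genes called in rib, 36 were called in every alternative that tested them, and of the 20 in nasal, 11. Genes under the median level, such as Rragb and Ctbs, were not in the fit that left such genes out. Quantile and cyclic loess normalization moved the differences of 20 of the 49 genes by more than 1 SD between replicates. The mean levels of Mitf, Tfec and Sgsh and the rib values of Lipa were below the median gene level of 231. So were 1 or both groups of Rragb, Mcoln3, Ctbs, Manba, Ctsc, Rragd, Atp6v0d2, Atp6v1b1, Slc36a1 and Slc46a3. The same held for the called markers Oca2, Phex and Mmp9. As background was not measured, how far it limits a difference at such levels is not known.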

Other observations

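The E-box letters can be counted over every measured gene as well. Of 240 genes with TCACGTGA in their promoter window, 32.5% were called higher in rib and 13.8% in nasal by limma, against 15.0% and 13.6% of the 15251 genes without it. The same genes were brighter: 84.6% of those with the motif were at or over the median gene level, against 50.7% of those without. In the fit without dim genes, the shares called higher in rib were 44.8% with the motif and 35.4% without, and in nasal 18.2% and 22.9%. For CATGTG, with 1942 genes, the shares called in rib were 11.7% with it and 15.8% without in the fit of all genes, and 35.4% and 35.7% without dim genes. These shares are descriptions of letters in a window, and whether level or the motif goes with the difference was not tested.

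Of 8 osteoblast markers, limma called 3 higher in nasal and 0 in rib. Negative differences were found in 5, none of them past the threshold, and the median was -0.03. Mmp9, from the osteoclast list, is given beside them. Ibsp, bone sialoprotein, stood at 1211 in nasal and 294 in rib (2.04, SE 0.23, limma adjusted p = 0.00108), Phex at 340 and 155 (1.13, SE 0.09, limma adjusted p = 0.000424), and Mmp9, a matrix protease of osteoclasts and late chondrocytes, at 842 and 206 (2.03, SE 0.14, limma adjusted p = 0.000244). Col1a1 was at 2079, 3862 and 4442 in the 3 rib samples and at 1885 to 2456 in nasal, with a difference of -0.65 (SE 0.28) that did not pass, and Runx2, a factor of osteoblasts and late chondrocytes, was at 1047 and 1319 (-0.33, SE 0.12), also not past the threshold.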
